A study of Arabidopsis thaliana with 6 samples.

Results

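The genes described here are those of the mitochondrial genome of Arabidopsis thaliana, together with the loci of chromosome 2 where a copy of that genome was inserted. A probe set, the group of short probes that reports one transcript or several like ones, was a member if the array's annotation assigned it to a single gene encoded in the mitochondrion or to a single locus from AT2G07600 to AT2G07842. This gave 60 of 22746 probe sets, standing for 53 of the 13356 genes that a one-gene probe set names. Of these, 23 probe sets named 16 mitochondrial genes and 37 named chromosome 2 loci. RNA came from 5 mm root tips of 7-day-old Col-0 seedlings, the common laboratory accession, grown in shaken liquid culture under continuous light. The roots had received synthetic CLE25 peptide or synthetic CLE10 peptide at 1000 nM for 12 h, and each peptide has 3 arrays (n = 3 for every group value). All roots were wild type and all were treated. No untreated roots were analysed here, so the values set the peptides against each other and show no response to either one. CLE peptides are secreted signals read by receptor kinases, and the comparison was made to find genes behind the unlike effects of this pair. Nothing in the labels ties the arrays of one group to separate cultures. The p-values therefore reflect array-to-array spread, which may be technical.

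Plant mitochondria keep a small genome that encodes some subunits of the respiratory chain and of ATP synthase, proteins that attach haem to cytochrome c, a few ribosomal proteins, and open reading frames. Most mitochondrial proteins are encoded in the nucleus and imported, and the complexes are built from both sets. Several mitochondrial transcripts, nad1 among them, are joined from separate RNA molecules by trans-splicing. In Col-0 a large stretch of mitochondrial DNA also lies in chromosome 2, so that many nuclear loci there resemble mitochondrial genes closely. The labelling kit starts copying at poly(A) tails, and tails on plant mitochondrial RNA mostly mark it for decay. How far this set the signals was not tested.

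The respiratory class was the best represented among the mitochondrial genes, with 21 probe sets for 14 genes. It held subunits of complex I (nad1, nad2, nad4, nad4L, nad5, nad6, nad7, nad9), subunits of cytochrome c oxidase (cox1, cox2) and factors of cytochrome c maturation. The maturation factors carry old names in the annotation, with ccb206 now called ccmB, ccb382 ccmFN1, ccb203 ccmFN2 and ccb452 ccmFC. The other 2 mitochondrial probe sets named matR, a maturase that acts in intron splicing, and orfX, now called mttB, an open reading frame related to a protein translocase subunit. No one-gene probe set was matched to a mitochondrial ribosomal gene or to any open reading frame other than orfX. The match was by symbol or synonym to the TAIR10.1 gene table, so a gene under a name missing there was not counted. Ribosomal genes were seen only in probe sets with several names, which are not members and are given below as a group.

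The chromosome 2 loci do not all belong to the insertion. In the order of the TAIR10.1 gene table, used here for names and neighbours only, the loci with tRNA synonyms marked out a run, and 28 member loci lay inside it. The other 9 member loci, AT2G07620 among them, fell in the numbered range but outside that run, and 8 of these are annotated as pseudogenes. Of the 28 loci inside, 27 are annotated as protein-coding, none of them with a gene name in that table. Their probe sets were mostly of the array maker's s_at type, whose probes can match several transcripts, with 19 of 28 inside the run, against 1 of 9 outside it. Where probes match both, RNA of the nuclear copy and RNA of the mitochondrial original cannot be told apart. No sequences were checked, so which probe sets do so is not known here, for s_at and other probe sets alike.

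Few members gave a clear signal in root tips. A probe set was taken as bright enough to be tested when its mean log2 value over all 6 arrays reached the 40th percentile of all probe sets, a signal near 92.3. This limit was met by 12 of 60 members (20%), against 13648 of all 22746 probe sets. It was met by 4 of 21 respiratory probe sets (nad4, cox1, ccb382 and ccb452), by orfX but not matR, and by 7 of the 28 insertion loci. All 7 bright insertion loci were among the 19 with s_at probe sets. Of the 9 insertion loci with probe sets of the plain _at type, 0 were bright. Over the whole array 51.6% of s_at and 60.7% of plain _at probe sets were bright. None of the 9 loci outside the run was bright, with mean signals from 1.85 to 22.2. The dimmest member that met the limit, AT2G07773, had a mean signal of 106, and the brightest that missed it, nad9, had 79.3. A signal depends on the probes as well as on the RNA, so levels of different genes were not ranked.

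**Figure D1:**
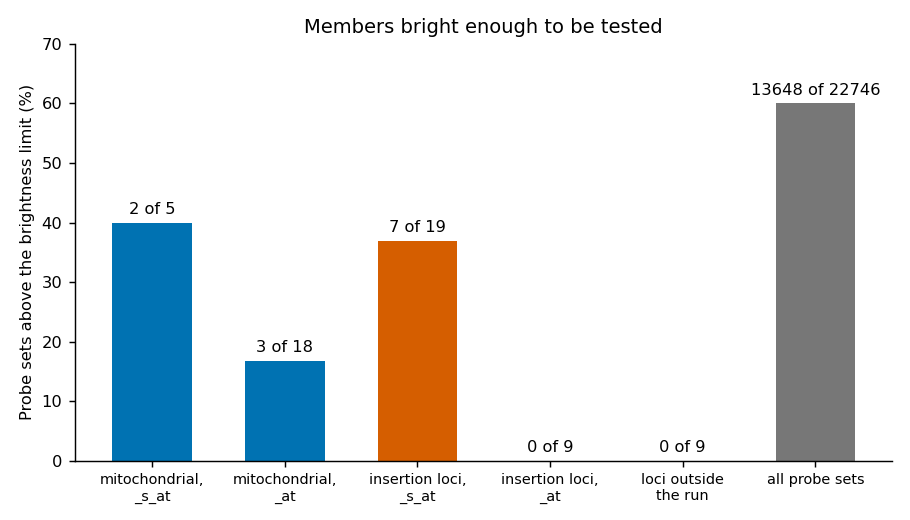
Share of probe sets above the brightness limit (vertical axis, percent) for mitochondrial genes, insertion loci and loci outside the run, split by probe-set type for the first 2, with all probe sets in grey. The s_at probe sets were bright in 2 of 5 mitochondrial cases and 7 of 19 insertion cases, and the insertion loci of the _at type in 0 of 9.

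None of the 12 tested members passed the test between the peptides. With limma, 0 of 12 had an adjusted p under 0.05, as was true of 0% of all 13648 tested probe sets. One of 12 had an unadjusted p under 0.05, against 4.21% of all tested probe sets, and it was lower with CLE25, as were 2.3%. The log2 difference, CLE25 minus CLE10, was below 0 for 12 of 12, where 50.6% of all tested probe sets were lower. Its median was -0.21 over the 12 members and -0.0024 over all tested probe sets. Leaving out CLE10 replicate 1 gave 9 of 12 and a median of -0.12. Leaving out CLE25 replicate 3 also gave 9 of 12, with a median of -0.17. The arrays of both peptides did not overlap for 3 of 12 members, all with lower signal after CLE25, where 4.51% of all tested probe sets were separated in that direction and 4.67% in the other. These members share arrays and may share transcripts, so their counts are not independent observations.

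The electron transport subunits had overlapping arrays. For nad4, a proton-pumping subunit of complex I, the signals were 431, 511 and 201 with CLE25, against 435, 420 and 349 with CLE10. CLE25 replicate 3 stood far below the other arrays, and the remaining 5 arrays lay between 349 and 511. The log2 difference was -0.17 ± 0.27 (SE, limma adjusted p = 0.9995), and it was 0.23 without CLE25 replicate 3. For cox1, the catalytic subunit of cytochrome c oxidase, signals were 398, 327 and 444 with CLE25, against 408, 318 and 686 with CLE10. Here CLE10 replicate 3 was the high array, and the other arrays of both peptides covered the same range. The log2 difference of -0.21 ± 0.23 (limma adjusted p = 0.9995) became 0.10 without that array.

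Of the 4 cytochrome c maturation factors, 2 were bright, and their arrays overlapped too. For ccb382 the signals were 3660, 3057 and 2702 with CLE25, against 4277, 3549 and 3092 with CLE10. The ranges of both peptides shared the stretch between 3092 and 3660, and the log2 difference was -0.21 ± 0.14 (limma adjusted p = 0.9995). Leaving out an array gave -0.33 (CLE25 replicate 1) to -0.09 (CLE10 replicate 1), with -0.11 for CLE25 replicate 3. For ccb452 they were 236, 142 and 128 with CLE25, against 206, 175 and 175 with CLE10. The highest of these arrays was CLE25 replicate 1, and the log2 difference of -0.18 ± 0.22 came to -0.44 without it. Dropping CLE25 replicate 3 left -0.01, dropping CLE25 replicate 2 left -0.09, and dropping CLE10 replicate 1 left -0.10. The translocase-like orfX had 356, 185 and 230 with CLE25, against 327, 212 and 263 with CLE10. Replicate 1 was high for both peptides, the difference was -0.09 ± 0.23, and its sign turned on leaving out CLE10 replicate 1 (0.07) or CLE25 replicate 2 (0.12). Over the 4 respiratory probe sets the median log2 difference was -0.19, and it was -0.06 without CLE25 replicate 3.

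**Figure D2:**
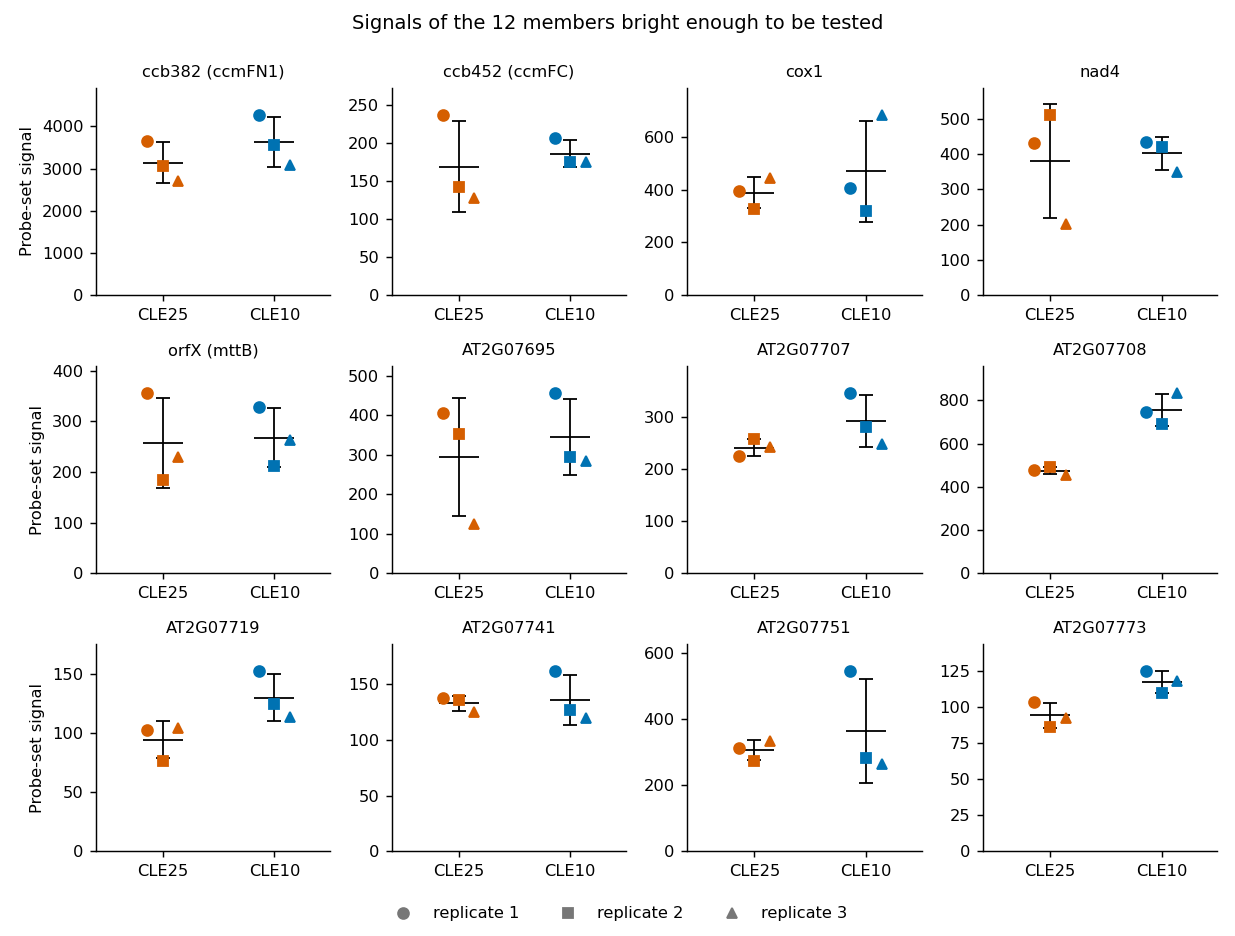
Probe-set signals (linear axis from 0) of the 12 tested members on each array, CLE25 in orange and CLE10 in blue, with symbols for the replicate number, a line at the mean and bars of 1 SD (n = 3). The groups are separate for AT2G07708, AT2G07719 and AT2G07773 and overlap for the other 9.

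The insertion loci held the member with the clearest separation. AT2G07708 had signals of 476, 492 and 457 with CLE25, against 746, 689 and 834 with CLE10. Every CLE25 array was below every CLE10 array, and the arrays within each peptide lay close together. Its log2 difference was -0.66 ± 0.11 (95% confidence interval -0.91 to -0.41), and its p ranked 2 of 13648 tested probe sets. The limma adjusted p was 0.319, so it did not pass. Over the alternatives that adjusted p ran from 0.181 with array weights to 0.9998 without CLE10 replicate 1. The difference itself kept between -0.73 and -0.58 in all of them. The locus has no gene name in the gene table and no role is given here.

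AT2G07719 and AT2G07773 were the other members with separate groups. AT2G07719 had 103, 76.4 and 104 with CLE25, against 153, 125 and 114 with CLE10, a log2 difference of -0.44 ± 0.20 (limma adjusted p = 0.9995). AT2G07773 had 104, 86.2 and 92.5 with CLE25, against 125, 110 and 118 with CLE10, a log2 difference of -0.30 ± 0.19 (limma adjusted p = 0.9995). For both, the gap between the groups was small beside the spread within them, and the signals lay close to the brightness limit. Their differences stayed below 0 when any array was left out.

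The other bright insertion loci overlapped between the peptides. AT2G07707 had 225, 258 and 242 with CLE25, against 347, 281 and 249 with CLE10, a log2 difference of -0.26 ± 0.15 that was -0.13 without CLE10 replicate 1. AT2G07695 had 405, 354 and 125 with CLE25, against 457, 295 and 284 with CLE10. As with nad4, CLE25 replicate 3 was the low array, and the difference of -0.35 ± 0.35 was 0.17 without it. AT2G07751 had 311, 273 and 334 with CLE25, against 544, 281 and 263 with CLE10. Only CLE10 replicate 1 lay apart, and the difference of -0.17 ± 0.23 was 0.16 without it. AT2G07741 had 138, 136 and 125 with CLE25, against 162, 127 and 120 with CLE10, a difference of -0.02 ± 0.18. The median over the 7 loci was -0.30, and -0.13 without CLE10 replicate 1. Over all 28 insertion loci, with no filter, it was -0.05, and the 21 dim ones were 11 below and 10 above 0 with a median of -0.01.

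**Figure D3:**
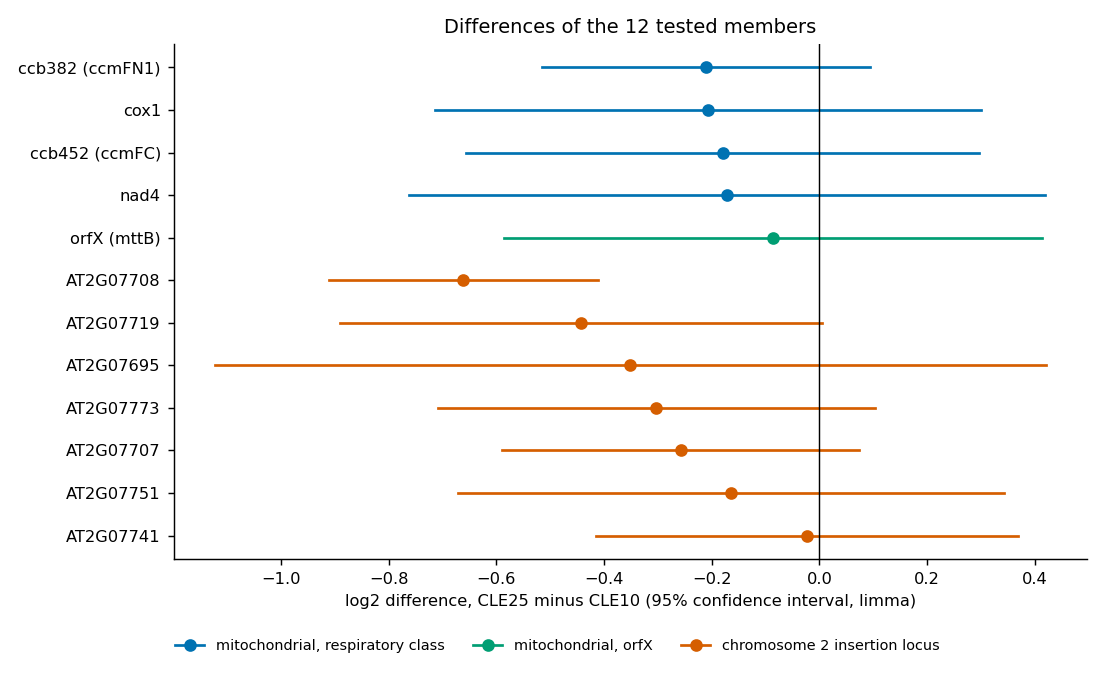
Log2 difference, CLE25 minus CLE10 (horizontal axis), of the 12 tested members with 95% confidence intervals from limma, in blue for respiratory genes, green for orfX and orange for insertion loci. All 12 points lie below 0, and 11 of the 12 intervals include 0.

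The precision bounds what these arrays could show. The 95% interval included 0 for 11 of 12 members and lay within 2-fold either way for 11 of 12, with AT2G07695 at -1.12 to 0.42 the exception to the second count. Standard errors ran from 0.11 to 0.35. The members varied more between arrays than most, with a median residual SD of 0.28 on the log2 scale, against 0.16 over all tested probe sets. These sets were not matched on signal, and the filter at the 60th percentile kept 6 of the 12 members, against 9099 of the 13648 probe sets.

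Part of that spread followed single arrays. CLE10 replicate 1 was the highest of all arrays for 7 of the 12 members, where it was the highest for 17.1% of all tested probe sets. Its median deviation from each member's mean over the 6 arrays was 0.33 on the log2 scale. The median deviations of the other CLE10 arrays were 0.04 and -0.03, and those of CLE25 were 0.01, -0.25 and -0.16 for replicates 1 to 3. CLE25 replicate 3 was the lowest array for 5 of the 12 members, against 24.6% of all tested probe sets. Markers of cell types went both ways on that array. LHCB4.1 of green tissue had its lowest signal there, 40.2, while the summed root hair markers had their highest, 6645. The summed meristem markers were lowest there too, 198, but the lowest CLE10 sum was 201. Their members BBM and JKD did not go together. BBM was lowest on that array, 77.3, while JKD had 121 there and its lowest, 79.1, on CLE10 replicate 2. Medians over all tested probe sets stayed between -0.02 and 0.03 on every array. What made these arrays differ was not tested.

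Mitochondrial ribosomal genes could be followed through 6 probe sets with several names, which the annotation ties to rps3, rpl16, rps12, rpl2, rps7, rps4 or rpl5, in pairs or each with a chromosome 2 locus. They are given as a group because no single name holds for any of them. Of these, 5 were bright, and 5 of 5 had a log2 difference below 0, from -0.86 to -0.15 with a median of -0.25. The one at -0.15 had signals of 203, 129 and 35.6 with CLE25, against 182, 97.5 and 77.3 with CLE10, so that its linear mean was slightly higher with CLE25. The lowest had signals of 118, 71.3 and 67.8 with CLE25, against 187, 176 and 115 with CLE10, a difference of -0.86 ± 0.25 (limma adjusted p = 0.9995). Its CLE25 replicate 1 and CLE10 replicate 3 arrays overlapped. The group leaned on few arrays, since its median was 0.02 once CLE25 replicate 3 was left out and -0.05 once CLE10 replicate 1 was.

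Arrays numbered 1 were the highest of their peptide for all 5 ribosomal probe sets, with CLE25 and with CLE10. Over all tested probe sets this held for 31.9% with CLE25 and 32.3% with CLE10. Their median deviations were 0.54, -0.18 and -0.70 for CLE25 replicates 1 to 3, against 0.68, -0.11 and -0.10 for CLE10. Another 6 probe sets with several names paired a chromosome 2 locus with nad1, cob, cox3, atp1 or atp9, genes of complexes I, III and IV and of ATP synthase. Of these, 3 were bright, and their differences ran from -0.41 to -0.17 with none past the test. With the 8 bright probe sets of both groups added to the members, 20 of 20 had a log2 difference below 0. Of all tested probe sets 50.6% did, and the median of the 20 was -0.22. One more bright probe set with several names, pairing a chromosome 2 locus outside the run with AT1G63250, was not counted. Its difference was 0.05 ± 0.17. Of the 12 members in the count, 9 stayed below 0 without CLE10 replicate 1, and 9 without CLE25 replicate 3.

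**Figure D4:**
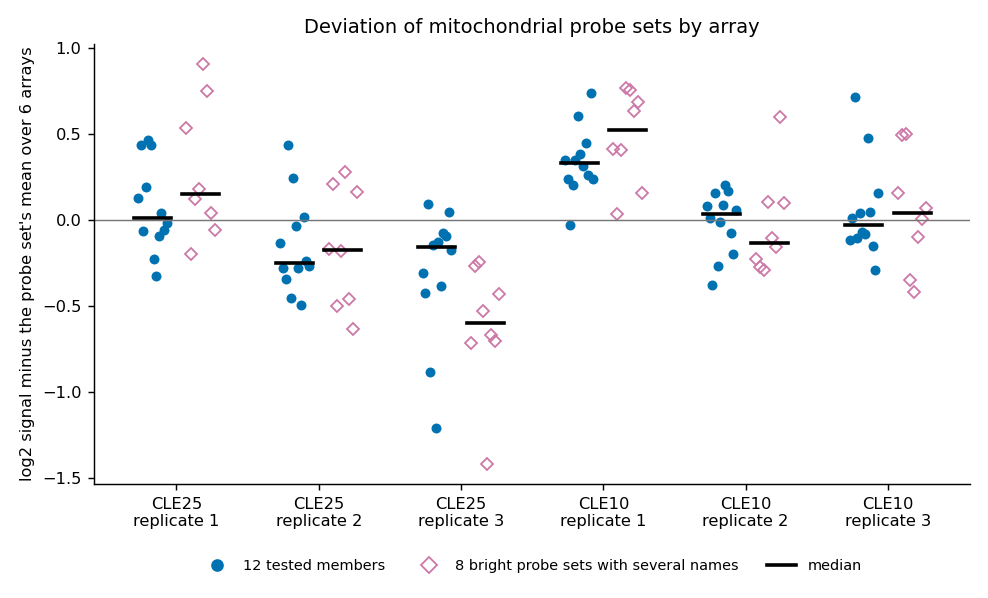
Deviation of each log2 signal from the probe set's mean over 6 arrays (vertical axis) on every array, for the 12 tested members (filled circles) and the 8 bright mitochondrial probe sets with several names (open diamonds), with black lines at the medians. CLE10 replicate 1 stands highest for both groups, with medians of 0.33 and 0.53, and CLE25 replicate 3 is lowest for the probe sets with several names, with a median of -0.60.

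The 48 members under the brightness limit are given as values only, with log2 differences taken with no filter on dim probe sets. They went both ways, 27 lower and 21 higher with CLE25, with a median of -0.02. Of all dim probe sets 49.6% were lower, with a median of 0.0040. Without the filter, the lowest limma adjusted p among the 48 was 0.999975. In that fit 3 of the 60 members had an unadjusted p under 0.05, against 4.31% of all probe sets. Most respiratory genes were in this group. Their 17 dim probe sets were 10 lower and 7 higher with CLE25, with a median of -0.12. The 7 probe sets of nad1, a core complex I subunit, had mean signals from 12.2 to 75.0 and differences from -0.43 to 0.18, 4 of them below 0. The pair of probe sets of nad5, another complex I subunit, gave -0.75 and -0.0048, so probes for one gene did not give one value.

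Among the other dim respiratory genes, nad9 had 109, 84.6 and 45.2 with CLE25, against 115, 69.7 and 52.6 with CLE10, a log2 difference of 0.00036. These arrays ranged widely within each peptide and overlapped throughout. Arrays also overlapped for nad4L, nad7 and nad6, which had log2 differences of 0.51, 0.42 and 0.10. On leaving out an array these ran from 0.05 to 0.90, from 0.27 to 0.66 and from -0.17 to 0.41. The oxidase subunit cox2 had 25.9, 53.2 and 29.4 with CLE25, against 57.4, 53.2 and 27.0 with CLE10. The dim maturation factors both had overlapping arrays and a sign that turned when an array was left out. For ccb203 the log2 difference was -0.61, and 0.02 without CLE25 replicate 1. For ccb206 it was -0.12, and 0.06 without CLE25 replicate 3. The maturase matR had 28.4, 37.1 and 32.9 with CLE25, against 33.4, 33.6 and 35.2 with CLE10, near one level on all arrays. The complex I subunit nad2 was the only dim member whose CLE25 arrays all lay below the CLE10 arrays, with 3.27, 9.04 and 2.36 with CLE25, against 12.9, 23.4 and 22.2 with CLE10. Of all dim probe sets 4.17% were separated that way. The log2 difference of nad2, -1.25, was -0.20 with the larger pseudocount of the 40th percentile and -1.92 with a pseudocount of 1.

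Of the dim chromosome 2 loci, 21 inside the run and 9 outside it, 4 had every CLE25 array above every CLE10 array. This held for 4.7% of all dim probe sets. In all, 5 of 48 dim members were separated in one direction or the other (10.4%), against 8.87% of all dim probe sets. One was AT2G07739, with 75.8, 46.9 and 39.5 with CLE25, against 13.7, 18.8 and 8.40 with CLE10. Its log2 difference was 1.60 and stayed between 1.35 and 1.78 when any array was left out, but the larger pseudocount gave 0.46 and a pseudocount of 1 gave 1.92. The others were AT2G07692, AT2G07713 and AT2G07620, with mean signals of 20.8, 12.0 and 10.5 with CLE25, against 9.96, 2.63 and 2.73 with CLE10. AT2G07620 lies outside the run. Of the 48 dim members, 13 had a mean signal under 10.

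The nuclear side of the same complexes was read from a list of 58 genes for respiratory subunits, cytochrome c, alternative respiratory enzymes, carriers and mitochondrial gene expression. One-gene probe sets named 24 of them, and 21 were bright enough to be tested. No carrier and no alternative oxidase had a one-gene probe set, so the values do not cover these. Among alternative respiratory enzymes only NDB2 was tested, and among mitochondrial gene expression only OSB1. Of the 21 tested, 0 passed in limma, and 11 had a log2 difference below 0 and 10 above it. The median was -0.0026, with a range from -0.18 to 0.26. Leaving out an array moved that median between -0.07 (CLE25 replicate 3) and 0.03 (CLE25 replicate 2). AT1G51650, the epsilon subunit of mitochondrial ATP synthase, had the smallest p. Its signals were 7278, 6266 and 7128 with CLE25, against 5646, 5685 and 5854 with CLE10, a difference of 0.26 ± 0.09 (limma adjusted p = 0.9995).

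The next nuclear genes by p had overlapping arrays. AT1G51980, the alpha subunit of the mitochondrial processing peptidase in complex III, had 0.14 ± 0.09, and NDB2, an alternative NADH dehydrogenase, had -0.18 ± 0.13. AT5G40810, a cytochrome c1 of complex III, had 0.14 ± 0.10. Cytochrome c itself had 0.0023 ± 0.11 for CYTC-1 and 0.06 ± 0.12 for CYTC-2. Whether nuclear and mitochondrial genes differ in their response was not tested.

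**Figure D5:**
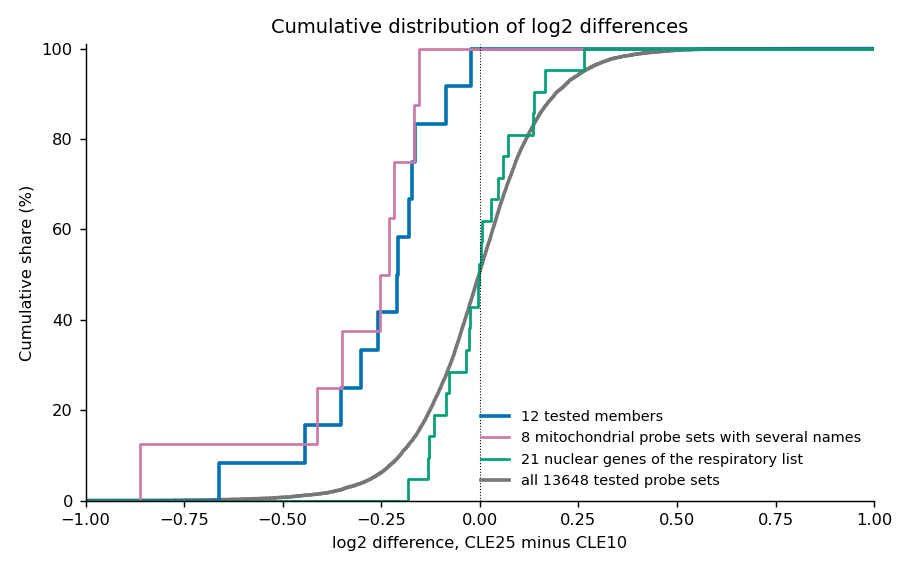
Cumulative share (vertical axis, percent) of log2 differences, CLE25 minus CLE10 (horizontal axis), for the 12 tested members, the 8 mitochondrial probe sets with several names, the 21 nuclear genes of the list and all 13648 tested probe sets. The nuclear genes spread around 0 with a median of -0.0026, while the 12 members have a median of -0.21. Without CLE25 replicate 3 these medians were -0.07 and -0.17. The sets were not matched on signal.

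Arrays were on one scale, with a mean signal of 500 on each after 2% of values were trimmed at both ends, and medians from 157 to 172. The log2 ratio of 3' to 5' control probe sets, a sign of RNA integrity, was 2.37, 2.26 and 2.02 with CLE25, against 2.03, 2.26 and 2.22 with CLE10. CLE10 replicate 1 and CLE25 replicate 3 had the lowest ratios. The members stood highest on the first and low on the second. Their lowest median deviation, -0.25, was on CLE25 replicate 2, which had a ratio of 2.26. The part of RNA integrity in this was not tested. The ratio differed by 0.05 between the groups (exact permutation test, two-sided, p = 0.7, where 0.1 is the smallest p possible with 3 arrays in each group). With the ubiquitin control the difference was 0.13 (exact permutation test, two-sided, p = 0.3). Of 7 meristem markers 2 had a one-gene probe set, BBM and JKD, and both were bright. Their summed signals were 198 to 288 with CLE25 and 201 to 316 with CLE10. Both root hair markers, EXPA7 and EXPA18, were bright, with summed signals of 3985 to 6645 with CLE25 and 3960 to 5003 with CLE10. The only green tissue marker with one, LHCB4.1, had 40.2 to 129 with CLE25 and 91.9 to 148 with CLE10. In whole root tips, fewer cells of a type and less RNA per cell cannot be told apart, and the part of these cell types in the results was not tested.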

How the data were processed

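The authors deposited linear intensity values, 1 per probe set and array, made with GCOS 1.4 per the submitters' processing notes. Trimmed means were equal on all arrays, and values scaled that way hide a change common to all transcripts. No source used here names a genome build, so no coordinates are printed. Detection calls and gene sequences were not used here. The 64 control probe sets were left out. Gene names came from the platform annotation. Its identifiers for mitochondrial genes are older than the TAIR10.1 gene table, so these genes were matched by symbol or synonym to that table's mitochondrial genes.

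Signals were analysed as log2(signal + 6.03), the pseudocount being the 10th percentile of all values, which understates differences of dim genes. CLE25 was compared with CLE10 across 13648 probe sets in limma 3.58.1 under R 4.3.3 (lmFit, eBayes with trend, no replicate block), with Benjamini-Hochberg adjustment over all of them and a threshold of 0.05. The exact permutation test used scipy 1.17.1. Scripts were tested on simulated data. Alternatives were other pseudocounts, filters, quantile normalization, no trend, a replicate block, array weights and each array left out.

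The members and lists were chosen with earlier results of these data known. Named by rule were the 6 tested members of smallest p in each direction, respiratory genes by their values or range, and the 4 nuclear genes of smallest p. The other tested members, matR, the dim loci and the cytochrome c genes were named after their values were seen.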

Additional observations from a re-analysis of the deposited data

How the results depend on the processing

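No member and no gene of the nuclear list passed an adjusted p of 0.05 under any alternative, leaving out each array included (0 to 0). Over all probe sets the count was 0 except with a replicate block, where limma called 1, AT3G45160, which is not a member, and 0 to 0 on leaving out an array. At an unadjusted p under 0.05 there was 1 member of 12, AT2G07708, against 4.21% of all tested probe sets. With no filter there were 3 of 60 (with nad2 and AT2G07739), against 4.31% of all probe sets. There were 3 without the variance trend (with AT2G07719 and AT2G07773) and 2 with a replicate block (with ccb382). Array weights gave 2 (with AT2G07719), and leaving out an array gave 1 to 3. The share of all probe sets is not given for these other settings, so their counts cannot be set against it. Members lower with CLE25 numbered 12 of 12, 39 of 60 with no filter, 6 of 6 with the filter at the 60th percentile, and 9 to 12 of 12 on leaving out an array. Their median ran from -0.33 to -0.12 on leaving out an array, that of the respiratory genes from -0.32 to -0.06, that of insertion loci from -0.37 to -0.13 and that of ribosomal probe sets from -0.62 to 0.02. Leaving out an array turned the sign of AT2G07751 (-0.35 to 0.16), orfX (-0.34 to 0.12), nad4 (-0.43 to 0.23), cox1 (-0.45 to 0.10), AT2G07695 (-0.66 to 0.17) and AT2G07741 (-0.11 to 0.10), and the causes were not tested. The other 6 tested members kept theirs under all alternatives run. The difference in RNA quality ran from -0.026 to 0.15 on leaving out an array, turning sign without CLE25 replicate 1 (-0.026) and without CLE10 replicate 1 (-0.020), and was 0.13 with the ubiquitin control. The ribosomal median planned for one-gene probe sets was not run, as 0 such probe sets were matched. Nor was that of open reading frames without a known function, as only orfX was matched. The counts of lower members, the insertion median and the groups with several names were added after the data were seen. Deviations of arrays with the same number correlated at 0.08, 0.14 and 0.22, each higher than with other numbers, a hint from the data only, so the numbers were not taken to pair the arrays. Dim signals limit 48 of the 60 members.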
